A study of Mus musculus with 6 samples.

Results

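Inflammasomes are protein platforms that assemble in the cytosol when a sensor meets a danger signal. The genes described here encode 4 sensors (Nlrp3, Nlrc4, Nlrp10 and Aim2), the adaptor Pycard, the caspases Casp1 and Casp4, and the pore-forming gasdermins Gsdmd, Gsdma and Gsdmc. These 10 genes were chosen by symbol from 19938 genes on the array, and each had 1 probe set listed under its symbol alone. Their levels were measured in FITC-challenged ear skin of 3 CLEC4C-DTR and 3 littermate control mice, with 1 mouse per array.

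CLEC4C-DTR mice (genotype CLEC4C-DTR/+) carry the diphtheria toxin receptor under the promoter of CLEC4C, a human gene of plasmacytoid dendritic cells, which makes cells that use this promoter sensitive to the toxin. The other mice are labelled littermate control. Their source names read CLEC4C-DTR-, that is without the transgene, and their titles read WT. Mouse numbers below are the labels' replicate numbers. Mice of both groups were 10 to 12 weeks old and were given 200 ng of diphtheria toxin on days -1, 1, 3 and 5. Both were also sensitised with 0.5% FITC (fluorescein isothiocyanate, a skin sensitiser) in acetone and dibutyl phthalate, with 100 µL on the abdomen on days 0 and 2 and 20 µL on the right ear on day 6. No toxin-free transgenic animals were analysed here, so effects of the transgene itself and of cell loss cannot be told apart. Both groups had the challenge and no solvent-painted ears were analysed, so whether a difference depends on the challenge cannot be told.

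In textbook terms, a sensor recruits the adaptor ASC (encoded by Pycard), which gathers and activates caspase-1. Caspase-1 matures the cytokines IL-1β and IL-18 and cuts gasdermin D, whose freed end opens pores in the plasma membrane and can end in lytic death, called pyroptosis. In skin, keratinocytes as well as myeloid cells express parts of this machinery. Much of its control lies in protein cleavage and assembly, which RNA levels do not show.

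Values below are log2 probe-set values after RMA, and differences are CLEC4C-DTR minus control on that log2 scale. A gene passed when limma's adjusted p (Benjamini-Hochberg over all 19938 genes) was 0.05 or less. By that rule 3 of the 10 genes rose in CLEC4C-DTR skin (Nlrp3, Gsdmd and Gsdma), none fell and 7 did not pass, with 6 of the 10 at an unadjusted p under 0.05. Over all genes 27.3% had an unadjusted p that low, 9.32% passed in either direction and 5.01% passed as higher. The median difference was 0.59 for the 10 genes and -0.04 for all genes. With 10 members, each gene weighs heavily in such a share.

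**Figure D1:**
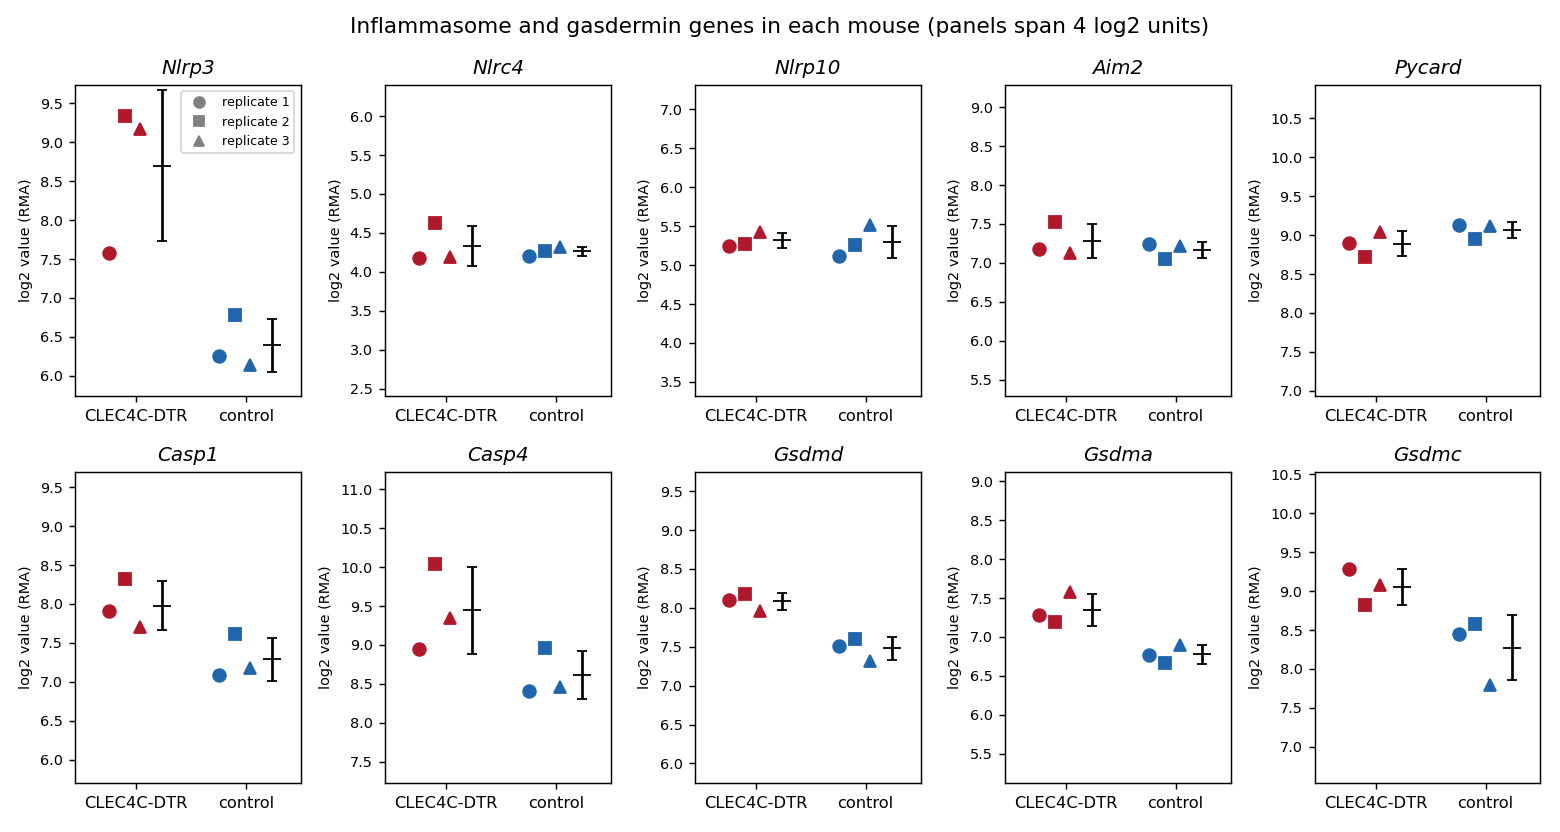
Log2 values (RMA) of the 10 genes in each mouse, with CLEC4C-DTR mice in red and littermate controls in blue; marker shapes give the replicate number and black bars the mean ± SD of the 3 mice of a group. Every panel spans 4 log2 units, and Nlrp3 shows the widest separation, with 7.58 to 9.34 in CLEC4C-DTR mice against 6.13 to 6.78 in controls.

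Nlrp3 encodes the sensor that responds to membrane damage, ion efflux and crystals, and its transcription is a known step of inflammasome priming. It read 7.58, 9.34 and 9.17 in CLEC4C-DTR mice 1, 2 and 3, against 6.26, 6.78 and 6.13 in control mice 1, 2 and 3. All 3 CLEC4C-DTR mice lay above all 3 controls, and CLEC4C-DTR mouse 1 was the closest to them. The mean was 8.70 ± 0.97 in CLEC4C-DTR skin and 6.39 ± 0.34 in controls (SD, n = 3 each). The difference was 2.31 (SE 0.43, 95% interval from 1.33 to 3.29), a 4.95-fold higher level (limma, adjusted p = 0.0214). Nlrp3 was the only 1 of the 10 genes that passed and also reached the 2-fold threshold of the study's design text, which 2.05% of all genes did in either direction and 1.67% as higher. The adjusted p was 0.0613 without CLEC4C-DTR mouse 2, 0.0766 without CLEC4C-DTR mouse 3, 0.0729 without control mouse 1 and 0.0954 without control mouse 3, while the difference stayed between 1.99 and 2.87 in all 6 fits with an array left out.

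The promoter windows of Nlrp3 are shown because this gene had the largest difference, and those of Casp1 and Casp4 because these neighbours in the genome had similar differences. The windows come from RefSeq (build GRCm38.p6), run from 250 bases before to 50 bases after an annotated transcript start, and are written 5′ to 3′ on the + strand, which is the coding strand of all 3 genes. Capitals mark matches to the NF-kB consensus, searched on both strands.
Nlrp3, first start, chr11:59541319-59541618: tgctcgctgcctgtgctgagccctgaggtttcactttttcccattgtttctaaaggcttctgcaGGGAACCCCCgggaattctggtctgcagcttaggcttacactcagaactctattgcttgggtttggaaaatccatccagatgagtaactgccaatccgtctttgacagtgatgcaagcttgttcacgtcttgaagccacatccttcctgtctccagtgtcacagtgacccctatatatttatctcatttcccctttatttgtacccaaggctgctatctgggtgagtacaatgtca
Nlrp3, second start, chr11:59542436-59542735: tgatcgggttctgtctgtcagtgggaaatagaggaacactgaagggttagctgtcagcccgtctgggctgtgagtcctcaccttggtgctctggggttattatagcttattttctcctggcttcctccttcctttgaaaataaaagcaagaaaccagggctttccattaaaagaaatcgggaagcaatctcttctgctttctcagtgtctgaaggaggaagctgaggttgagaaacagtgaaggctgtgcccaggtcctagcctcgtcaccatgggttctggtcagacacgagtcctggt
Casp1, chr9:5298267-5298566: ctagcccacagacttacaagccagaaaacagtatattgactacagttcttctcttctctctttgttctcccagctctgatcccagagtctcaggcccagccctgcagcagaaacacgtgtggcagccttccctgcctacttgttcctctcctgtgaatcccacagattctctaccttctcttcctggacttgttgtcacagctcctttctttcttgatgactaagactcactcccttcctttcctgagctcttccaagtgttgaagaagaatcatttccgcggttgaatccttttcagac
Casp4, chr9:5308599-5308898: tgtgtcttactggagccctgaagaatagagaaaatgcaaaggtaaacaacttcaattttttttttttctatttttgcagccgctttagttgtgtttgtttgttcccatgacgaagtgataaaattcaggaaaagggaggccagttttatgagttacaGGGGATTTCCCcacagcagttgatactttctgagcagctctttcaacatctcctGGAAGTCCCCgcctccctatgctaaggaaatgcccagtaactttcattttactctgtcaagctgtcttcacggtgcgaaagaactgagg
Of the 10 genes, 6 were matched in the promoter table (Nlrp3, Nlrc4, Aim2, Pycard, Casp1 and Casp4). The first Nlrp3 window held 1 NF-kB match and the second none. The Casp4 window held 3 matches, of which 2 overlap each other and fill the first run of capitals. A second annotated Casp4 start gives the window chr9:5308610-5308909, which overlaps the printed window and holds the same 3 matches. No match was present in the windows of Casp1, Nlrc4, Aim2 or Pycard. An NF-kB match was found in 8.46% of all 32851 promoter windows of this length. None of the windows of these 6 genes held the AP-1 motif TGANTCA, the STAT motif TTCNNNGAA or the interferon-stimulated response element, which were present in 7.81%, 8.30% and 3.44% of all windows. A match describes the letters only, and binding was not measured.

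The other sensors did not pass. Nlrc4 encodes the sensor that NAIP proteins activate on bacterial flagellin and secretion needles. It read 4.18, 4.62 and 4.19 in CLEC4C-DTR mice, against 4.20, 4.26 and 4.32 in controls, and the groups overlapped (difference 0.07, 95% interval from -0.23 to 0.36, adjusted p = 0.780). Aim2 encodes the sensor of cytosolic DNA. It read 7.18, 7.52 and 7.13 in CLEC4C-DTR mice, against 7.24, 7.05 and 7.22 in controls, and only CLEC4C-DTR mouse 2 lay above the controls (difference 0.11, 95% interval from -0.17 to 0.39, adjusted p = 0.619). Nlrp10 encodes a protein of the same family that lacks the leucine-rich repeats and is made by keratinocytes. It read 5.25, 5.28 and 5.42 in CLEC4C-DTR mice, against 5.11, 5.25 and 5.52 in controls, with the CLEC4C-DTR values inside the range of the controls (difference 0.02, 95% interval from -0.25 to 0.29, adjusted p = 0.926). For these 3 genes the upper ends of the intervals, 1.29-fold, 1.31-fold and 1.22-fold, lie below the lower end for Nlrp3, 2.51-fold, although the differences between genes were not themselves tested. The sign of each of these 3 differences turned when certain single arrays were left out. Nlrc4 and Nlrp10 read below every array median (6.17 to 6.23). The values include no background measure, so the fold limits given for these genes hold for the array values only.

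Pycard encodes ASC, the adaptor shared by several sensors. It was the only 1 of the 10 genes with a lower mean in CLEC4C-DTR skin, and it did not pass. It read 8.90, 8.72 and 9.04 in CLEC4C-DTR mice, against 9.13, 8.95 and 9.11 in controls, and CLEC4C-DTR mouse 3 lay among the controls (difference -0.18, SE 0.11, 95% interval from -0.42 to 0.07, adjusted p = 0.328).

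Neither caspase passed with all arrays, although both had higher means in CLEC4C-DTR skin. Casp1 encodes the protease that matures IL-1β. It read 7.92, 8.32 and 7.70 in CLEC4C-DTR mice, against 7.08, 7.61 and 7.17 in controls. The groups did not overlap, with a gap of 0.09 between CLEC4C-DTR mouse 3 and control mouse 2. The difference was 0.69 (SE 0.19, 95% interval from 0.26 to 1.12, 1.61-fold, adjusted p = 0.0562), and Casp1 passed without control mouse 2 (adjusted p = 0.0417), after median centring of the arrays (adjusted p = 0.0484), over genes above the median level (adjusted p = 0.0473) and with array weights (adjusted p = 0.0486).

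Casp4, known in the mouse as caspase-11, binds lipopolysaccharide in the cytosol and cuts gasdermin D directly. It read 8.94, 10.04 and 9.35 in CLEC4C-DTR mice, against 8.41, 8.97 and 8.46 in controls. Control mouse 2 lay just above CLEC4C-DTR mouse 1, so the groups overlapped. The difference was 0.83 (SE 0.27, 95% interval from 0.21 to 1.45, 1.78-fold, adjusted p = 0.0909), and Casp4 passed without CLEC4C-DTR mouse 1 (adjusted p = 0.0260). In both groups Casp1 and Casp4 were highest in mouse 2. The annotation places Casp12 next to Casp4, with Casp1 on its other side. Casp12, named here after its values were seen, differed by -0.19 (adjusted p = 0.540).

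**Figure D2:**
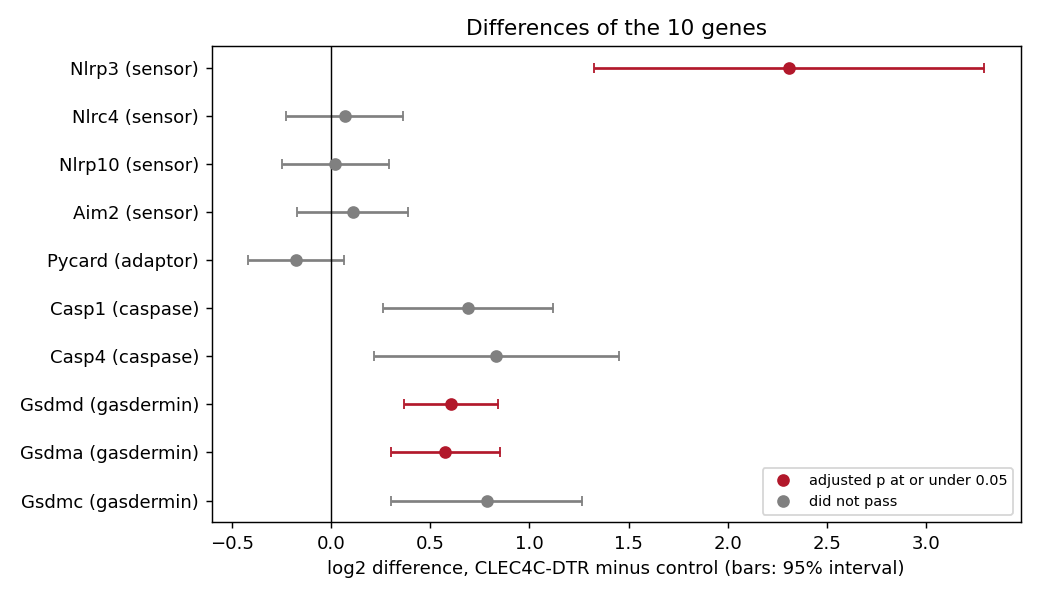
Log2 differences of the 10 genes, CLEC4C-DTR minus littermate control, with 95% intervals from limma; red marks genes that passed an adjusted p of 0.05. Nlrp3 lies at 2.31, the caspases and gasdermins between 0.58 and 0.83, and Nlrc4, Nlrp10, Aim2 and Pycard between -0.18 and 0.11.

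The 3 gasdermins all lay higher in CLEC4C-DTR skin, and 2 of them passed. Gsdmd encodes gasdermin D, the pore former cut by caspase-1 and by the product of Casp4. It read 8.11, 8.18 and 7.97 in CLEC4C-DTR mice, against 7.51, 7.60 and 7.32 in controls. The groups were apart by 0.36, and the values within each group lay close together (SD 0.11 in CLEC4C-DTR and 0.14 in control mice, n = 3 each). The difference was 0.60 (SE 0.10, 95% interval from 0.37 to 0.84, 1.52-fold, adjusted p = 0.0178). The adjusted p was 0.0533 without CLEC4C-DTR mouse 2, 0.0544 without CLEC4C-DTR mouse 3, 0.0620 without control mouse 1 and 0.0799 without control mouse 3, with differences from 0.53 to 0.67 over the 6 fits.

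Gsdma encodes a gasdermin of the epidermis whose human counterpart is opened by a streptococcal protease. It read 7.28, 7.19 and 7.58 in CLEC4C-DTR mice, against 6.76, 6.66 and 6.90 in controls, and the groups were apart by 0.29. The difference was 0.58 (SE 0.12, 95% interval from 0.30 to 0.85, 1.49-fold, adjusted p = 0.0287). Gsdma did not pass without CLEC4C-DTR mouse 3 (adjusted p = 0.0759) or without control mice 1, 2 or 3 (adjusted p = 0.0897, 0.0691 and 0.0830).

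Gsdmc encodes a gasdermin whose human relative is cut by caspase-8. It read 9.28, 8.82 and 9.07 in CLEC4C-DTR mice, against 8.45, 8.57 and 7.79 in controls. The groups did not overlap, and control mouse 3 was the lowest of all 6 mice. The difference was 0.78 (SE 0.21, 95% interval from 0.30 to 1.26, 1.72-fold), and it did not pass (adjusted p = 0.0539). Gsdmc passed after median centring (adjusted p = 0.0470), with either filter on low levels (adjusted p = 0.0462 and 0.0485) and with array weights (adjusted p = 0.0427). It passed in none of the fits with an array left out, which gave adjusted p from 0.0527 to 0.142. Gsdmc has close relatives next to it in the genome, so its probe set may also bind their transcripts.

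In all, 5 of the 10 genes (Nlrp3, Casp1, Gsdmd, Gsdma and Gsdmc) had all CLEC4C-DTR values above all control values, and none had all of them below. Over all genes 14.0% were separated in that direction, 19.0% in the other and 33.0% in either.

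**Figure D3:**
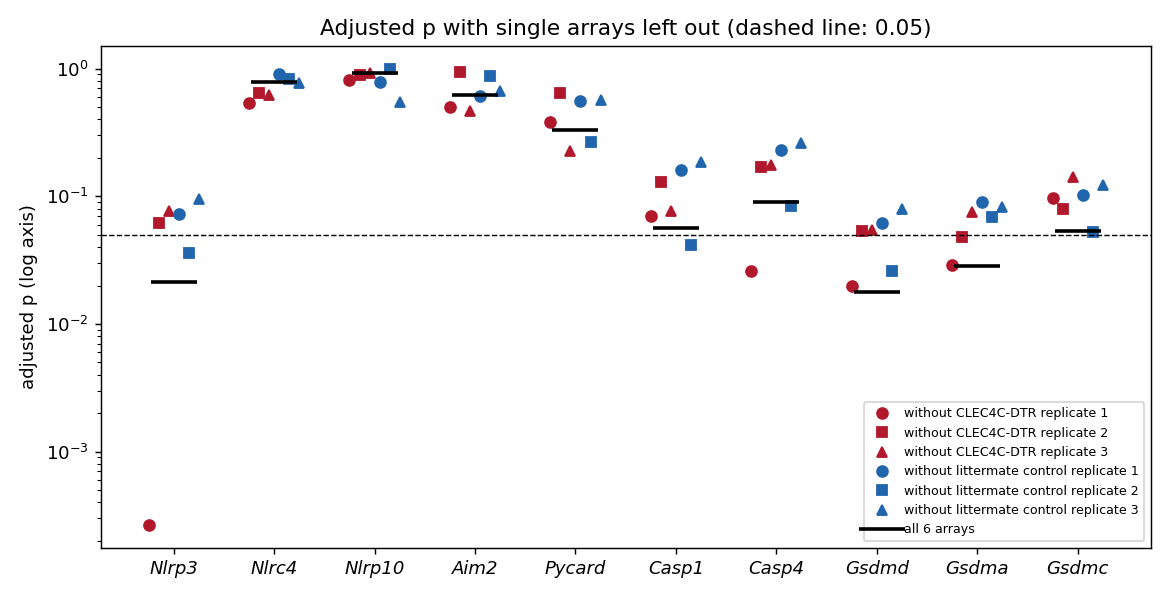
Adjusted p (log axis) of each of the 10 genes with all 6 arrays (black bar) and with each array left out in turn (red for CLEC4C-DTR, blue for littermate control, shape for the replicate). The dashed line is 0.05; Nlrp3, Gsdmd and Gsdma lie under it with all arrays and above it in 4 of the 6 fits each, while Nlrc4, Nlrp10, Aim2 and Pycard lie above it in every fit.

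The mice differed among themselves in how far each gene stood from the mean of the controls. CLEC4C-DTR mice 1, 2 and 3 stood 1.19, 2.95 and 2.78 above it for Nlrp3. For Gsdmd the same mice stood 0.63, 0.70 and 0.49 above it, and for Gsdmc 1.00, 0.54 and 0.80. Mouse 1, the lowest of the group for Nlrp3, was thus the highest for Gsdmc.

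Markers of several cell types also differed between the groups. All 8 neutrophil markers tested rose, and their mean stood 1.38, 2.83 and 2.64 above that of the controls in CLEC4C-DTR mice 1, 2 and 3, against -0.26 to 0.14 in the controls. Those are the same order of mice and similar sizes as for Nlrp3. Of 10 monocyte and macrophage markers 7 rose and none fell, with list means 0.75 to 1.00 above that of the controls in CLEC4C-DTR mice and from -0.23 to 0.23 in the controls. Itgam had the largest difference of this list, 1.74. Lyz2 had all CLEC4C-DTR values below the controls and did not pass (difference -0.21), and the groups overlapped for Adgre1 and Ccr2. Of 7 T cell markers 2 rose, and of 9 dendritic and Langerhans cell markers 4 rose, against 5.01% of all genes. The 4 were Itgax, Clec9a, Ccr7 and Fscn1. Another 3 of the 9 had lower means in CLEC4C-DTR skin and did not pass (Cd207 by -0.36, Xcr1 by -0.04 and Zbtb46 by -0.03). The T cell and the dendritic and Langerhans cell list means had the same order of mice as Nlrp3. In both lists, however, mice 1 and 3 lay close together, which was not so for Nlrp3. In CLEC4C-DTR mice 1, 2 and 3 the T cell list stood at 0.48, 0.81 and 0.50. The dendritic and Langerhans cell list stood at 0.35, 0.48 and 0.38, while the monocyte and macrophage list was highest in mouse 3. The part of these cell types in the rise of Nlrp3, Gsdmd and Gsdma was not tested. In whole skin, more cells of a type and more RNA per cell cannot be told apart.

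Markers of keratinocytes, which express Gsdma and Nlrp10, did not rise. Of 6 basal keratinocyte markers 1 fell and none rose. Of 7 differentiated keratinocyte markers 0 passed in limma, while 2 had an unadjusted p under 0.05, both with lower means (Krt10 by -0.46 and Flg2 by -1.72). The list means of the basal markers stood from -0.63 to -0.25 in CLEC4C-DTR mice and from -0.05 to 0.03 in controls. The differentiated markers stood at -0.08, -0.79 and 0.01 in CLEC4C-DTR mice 1, 2 and 3, and from -0.27 to 0.17 in controls. Only CLEC4C-DTR mouse 2 lay outside that control range. Of these 7 markers 3 had higher means in CLEC4C-DTR skin and 4 lower means. Of 6 sebaceous gland markers 3 fell. All 5 skeletal muscle markers were lower in mean in CLEC4C-DTR skin (median difference -0.57). Of the 5, 3 had all CLEC4C-DTR values below the controls, against 19.0% of all genes. Only 1 fell, Tnnt3, a troponin gene of fast muscle, by 0.67 on the log2 scale (adjusted p = 0.0347). Of 6 plasmacytoid dendritic cell markers 0 passed in limma, while 2 had an unadjusted p under 0.05. These went opposite ways, Bst2 by 0.57 and Tcf4 by -0.41. Over the 6 mice Siglech read 5.4 to 5.8, below every array median (6.17 to 6.23), and Ly6d read 11.1 to 11.5. How well this list follows plasmacytoid dendritic cells in whole ear skin was not tested. The epidermal keratins Krt5 and Krt14 read 11.94 to 12.34 and 12.01 to 12.22 over the 6 mice, near the upper end of the table's values. RMA values have no zero, so no marker could be called absent.

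**Figure D4:**
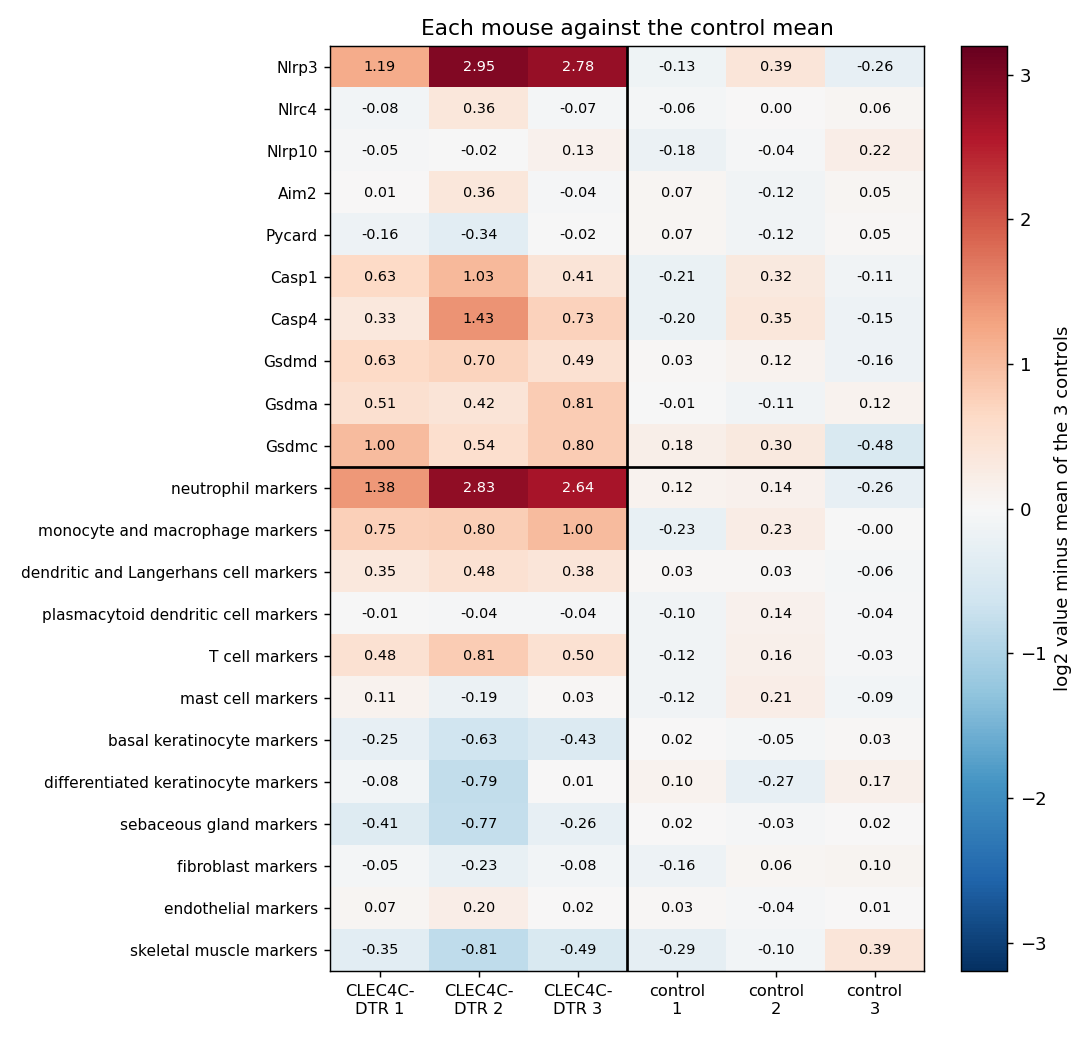
Log2 value of each mouse minus the mean of the 3 controls, for the 10 genes (top) and for the mean of each marker list (bottom), with CLEC4C-DTR mice left of littermate controls and the colour scale at the right. Nlrp3 and the neutrophil markers share the darkest cells, in CLEC4C-DTR mice 2 and 3.

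Of 63 other genes of the pathway listed by role, 54 were tested, and 14 rose, 1 fell and 39 did not pass. Over all genes 5.01% passed as higher and 4.31% as lower. The other 9 are not analysed here. The median difference of the 54 was 0.44.

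Among 7 further inflammasome sensors 2 rose. Mefv, which encodes the sensor pyrin, rose by 1.03 (SE 0.23, adjusted p = 0.0354). Naip2, which encodes a partner of Nlrc4 that binds secretion system rods, rose by 0.61 (SE 0.14, adjusted p = 0.0380). Its control values (5.71 to 5.92) lay below every array median (6.17 to 6.23). Of 3 AIM2-like receptors 1 rose, Ifi202b, which binds DNA and can hold Aim2 in check in the mouse, by 1.49 (SE 0.37, adjusted p = 0.0471). Of 5 other NOD-like receptors 1 rose, Nod2, a sensor of bacterial muramyl dipeptide, by 0.51 (SE 0.12, adjusted p = 0.0435). Mefv, Naip2 and Ifi202b passed in 1 of the 6 fits with an array left out, the fit without CLEC4C-DTR mouse 1, and Nod2 in 2, those without CLEC4C-DTR mouse 1 or control mouse 2. With robust moderation of the variances Ifi202b did not pass (adjusted p = 0.0758).

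Of 11 inflammasome regulators 2 rose and none fell. Pstpip1, an adaptor that binds pyrin, read 7.82, 8.08 and 8.05 in CLEC4C-DTR mice, against 7.11, 7.17 and 6.96 in controls. It rose by 0.90 (SE 0.10, 1.87-fold, adjusted p = 0.00937) and was the only gene among Nlrp3, Gsdmd, Gsdma and the 15 pathway genes called that passed in all 6 fits with an array left out (adjusted p from 0.00131 to 0.0498). P2rx7 encodes the ATP-gated channel whose potassium efflux activates Nlrp3. It read 8.15, 8.02 and 8.24 in CLEC4C-DTR mice, against 7.29, 7.68 and 7.41 in controls, and rose by 0.68 (SE 0.12, adjusted p = 0.0186). Its adjusted p reached 0.0853 with an array left out, and P2rx7 did not pass without CLEC4C-DTR mouse 3 or control mice 1 or 3. Irf2, a transcription factor that drives Gsdmd, was named after its values were seen and differed by 0.38 (adjusted p = 0.132).

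Of 6 other caspases 1 rose. Casp6, an executioner caspase, read 7.18, 7.12 and 7.09 in CLEC4C-DTR mice, against 6.49, 6.60 and 6.65 in controls. It rose by 0.55 (SE 0.08, adjusted p = 0.0142), and its adjusted p reached 0.0583 with an array left out, with no call without CLEC4C-DTR mouse 3 or control mice 1 or 3. Casp8, the initiator caspase of death receptors, was named after its values were seen and differed by 0.35 (adjusted p = 0.0614). Casp8 passed after median centring (adjusted p = 0.0484), over genes above the median level (adjusted p = 0.0423) and with array weights (adjusted p = 0.0455).

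Of 6 other gasdermins tested none rose, 1 fell and 5 did not pass, and their median difference was -0.01. An unadjusted p under 0.05 was reached by 5 of them, 3 had all CLEC4C-DTR values above the controls and 2 had all of them below. Over all genes these shares were 27.3%, 14.0% and 19.0%. Gsdme encodes gasdermin E, which caspase-3 opens. It read 6.78, 7.12 and 6.86 in CLEC4C-DTR mice, against 7.58, 7.25 and 7.66 in controls, and fell by 0.58 on the log2 scale (SE 0.13, adjusted p = 0.0392). Its dimmer probe set differed by -0.07, and the mean of both probe sets did not pass (adjusted p = 0.0646), nor did Gsdme after median centring (adjusted p = 0.0524), with a replicate block (adjusted p = 0.0570) or in 5 of the 6 fits with an array left out (adjusted p up to 0.147; it passed without control mouse 2).

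None of the tested relatives of Gsdma and Gsdmc passed with all arrays. Gsdma2, the neighbour of Gsdma, differed by 0.21 (adjusted p = 0.181) and Gsdma3, a gene known for hair follicle defects when mutated in mice, by -0.25 (adjusted p = 0.199). Gsdmc2, the neighbour of Gsdmc, read 5.83, 6.26 and 7.19 in CLEC4C-DTR mice, against 5.60, 5.31 and 5.22 in controls. Its groups did not overlap, CLEC4C-DTR mouse 3 was the highest, and it did not pass (difference 1.05, SE 0.30, adjusted p = 0.0680). Gsdmc2 passed without CLEC4C-DTR mouse 1 (adjusted p = 0.0161) and with array weights (adjusted p = 0.0402). Gsdmc4 differed by 0.20 (adjusted p = 0.151) and Pjvk, the gasdermin-related pejvakin gene of the inner ear, by -0.22 (adjusted p = 0.133). Levels were low for Gsdma2 (3.45 to 3.82), Gsdmc4 (2.78 to 3.11) and Pjvk (3.73 to 4.11), below every array median (6.17 to 6.23). The Gsdmc2 values of all controls and of CLEC4C-DTR mouse 1 lay below every array median too. A probe set shared by Gsdmc2, Gsdmc3 and Gsdmc4, kept out of the test because it lists several genes, averaged 5.32 ± 0.13 in CLEC4C-DTR mice and 4.83 ± 0.20 in controls (SD, n = 3 each). Its values also lay below every array median. Another, shared by Gsdmc2 and Gsdmc4, averaged 3.19 ± 0.16 and 2.94 ± 0.15, a difference of 0.24. The probe sets that list Gsdmcl1, Gsdmcl2 and Gsdmcl-ps differed by -0.007 and -0.011.

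**Figure D5:**
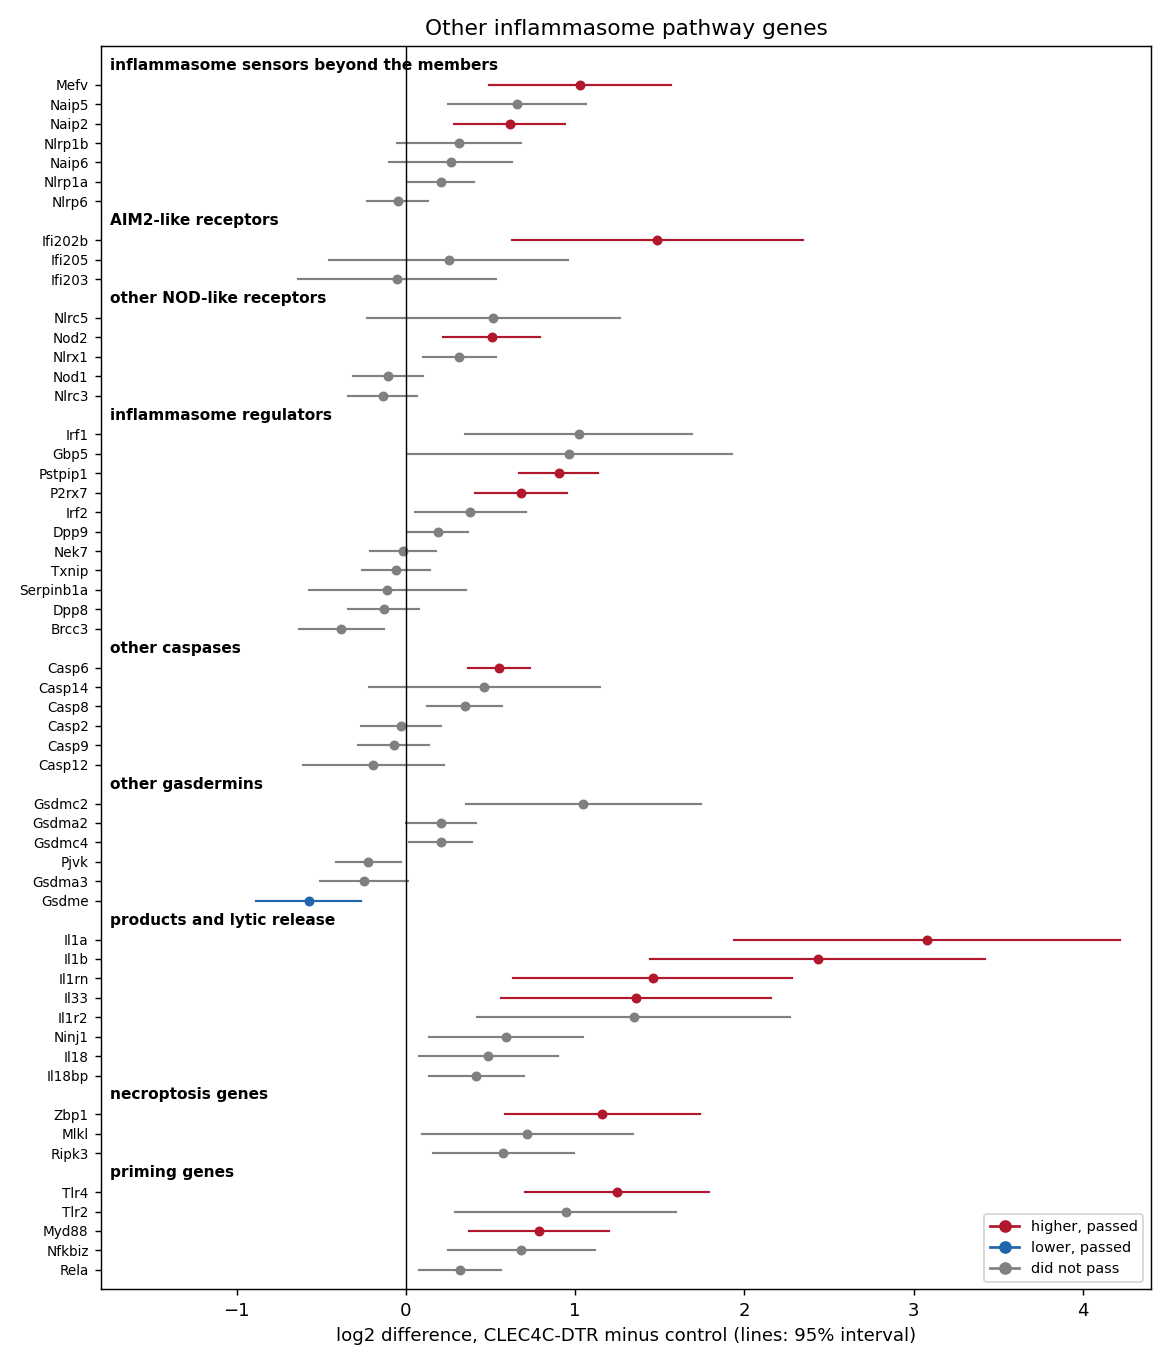
Log2 differences, CLEC4C-DTR minus littermate control, of 54 other pathway genes grouped by role, with 95% intervals from limma; red marks genes that passed as higher, blue as lower and grey those that did not pass. The cytokine genes Il1a and Il1b lie farthest to the right, at 3.08 and 2.43, and Gsdme farthest to the left at -0.58.

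All 8 genes of the products and release list lay higher in CLEC4C-DTR skin, and 4 rose. Il1b, the caspase-1 substrate, read 10.74, 12.32 and 12.15 in CLEC4C-DTR mice, against 9.56, 9.71 and 8.65 in controls, and rose by 2.43 (SE 0.43, adjusted p = 0.0192). Il1a, a cytokine released by dying cells, rose by 3.08 (SE 0.50, adjusted p = 0.0169), the receptor antagonist gene Il1rn by 1.46 (SE 0.36, adjusted p = 0.0441) and the alarmin gene Il33 by 1.36 (SE 0.35, adjusted p = 0.0485). These calls also depended on single arrays, with adjusted p up to 0.0820 for Il1b, 0.0724 for Il1a, 0.150 for Il1rn and 0.167 for Il33. None of the 4 passed without CLEC4C-DTR mouse 3 or control mice 1 or 3, and of them only Il1a passed without CLEC4C-DTR mouse 2. Il1rn and Il33 did not pass without control mouse 2 either. With all arrays kept, robust moderation also ended the calls of Il1rn (adjusted p = 0.0715) and Il33 (adjusted p = 0.0783), and a fit over all single-symbol probe sets that of Il33 (adjusted p = 0.0508).

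Il18, the other cytokine matured by caspase-1, read 6.96, 7.09 and 7.59 in CLEC4C-DTR mice, against 6.47, 6.92 and 6.79 in controls. Its groups were apart by 0.04, and it did not pass (difference 0.49, SE 0.18, adjusted p = 0.126). Ninj1, which encodes the protein that ruptures the membrane after gasdermin pores have formed, differed by 0.59 (SE 0.20, 95% interval from 0.13 to 1.05) and did not pass, except without CLEC4C-DTR mouse 1 (adjusted p = 0.0358). Il18 and Ninj1 were named after their values were seen.

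Of 3 necroptosis genes 1 rose, Zbp1, a sensor of Z-form nucleic acids, by 1.16 (SE 0.25, adjusted p = 0.0315). Of 5 priming genes 2 rose. Tlr4, the receptor for lipopolysaccharide, rose by 1.25 (SE 0.24, adjusted p = 0.0230), and Myd88, the adaptor of Toll-like and IL-1 receptors, by 0.79 (SE 0.18, adjusted p = 0.0365). Zbp1, Tlr4 and Myd88 each passed in 2 of the 6 fits, those without CLEC4C-DTR mouse 1 or control mouse 2. Myd88 did not pass after a further quantile normalisation (adjusted p = 0.0538).

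For each of the 3 genes that rose, the genes outside these lists with the most similar profile were taken by the root mean square distance between log2 deviations from the gene's own mean over the 6 arrays. Nearest to Nlrp3 were Osm, a cytokine of the IL-6 family, at a distance of 0.12, and Ccl4, a chemokine of myeloid and T cells, at 0.13. Nearest to Gsdmd were P2ry14, a receptor for UDP-glucose, at 0.04, and Clcn5, a chloride and proton exchanger of endosomes, at 0.05. Nearest to Gsdma were Gen1, a nuclease that resolves DNA junctions, at 0.04, and Ncaph, a condensin subunit, at 0.06. These distances describe 6 arrays in 2 groups, and a search over all genes returns close profiles by its size alone.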

How the data were processed

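Total RNA of whole ear skin was biotin-labelled and hybridised to Affymetrix mouse gene arrays, per the labels' protocols. RMA, which corrects background, equalises the arrays by quantiles and summarises probes, gave the deposited log2 values, as the design text states. The values span 1.60 to 13.9, with array medians of 6.17 to 6.23, and include no background measure. Shifts common to most genes are removed by RMA. No source used here names the RMA software, and the role of build mm8, listed in the submitters' processing notes, is not stated.

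Of 35556 probe sets, 21789 carry 1 gene symbol, 1621 several and 12146 none in the platform annotation. Symbols were updated by Entrez identifier in a RefSeq table (GRCm38.p6, 21698 found), and the brightest probe set per gene gave 19938 genes. Groups were compared with limma 3.58.1 (lmFit and eBayes, R 4.3.3), two-sided, with no covariate, no filter on low values and Benjamini-Hochberg adjustment over all genes. Every adjusted p is from that fit or a named alternative. Replicates are separate mice, no arrays were identical, and the 3 arrays per group limit precision. With 3 against 3, an exact permutation test of a gene cannot go below 0.1.

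The 10 genes, the pathway and marker lists and the tests were chosen with earlier results of these data known. All 10 genes are named, the called genes of each pathway list up to 4 by p, all gasdermin relatives, the 2 nearest profiles of each called gene, and a few others marked as chosen after their values were seen. Tested on simulated data of 19938 genes, limma found 16 of 50 genes with a log2 change of 0.5, 42 of 50 with 1, 49 of 50 with 2 and 50 of 50 with 3, and made 4 false calls. No other gene was changed in the simulation, and its noise was independent between genes, with no effect shared across an array. Recovery and false calls may therefore differ in the real data. Alternatives were scaling, filters, probe set rules, variance moderation, array weights, a replicate block and single arrays left out. Figures were drawn with matplotlib 3.10.9.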

Additional observations from a re-analysis of the deposited data

How the results depend on the processing

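The 10 genes gave 3 calls in the fit with all arrays, 5 after median centring, 5 over genes above the median level (8 of the 10 kept, without Nlrc4 and Nlrp10), 5 with array weights and 1 with the 2-fold threshold. The pathway genes gave 15 calls, 23 with array weights and 8 with the 2-fold threshold, and all genes gave 1858, of which 408 reached the 2-fold threshold. Without moderation of variances limma's fit called 0 of each, with 5 of the 10 genes, 25 of the 54 pathway genes and 4387 of all genes at an unadjusted p under 0.05. With single arrays left out the calls ranged from 0 to 4 for the 10 genes, from 1 to 22 for the pathway genes and from 67 to 2617 for all genes. The 10 genes had 0 limma calls without CLEC4C-DTR mouse 3, control mouse 1 or control mouse 3, with 6, 5 and 6 at an unadjusted p under 0.05, and 1 call without CLEC4C-DTR mouse 2. Of the 1858 calls 998 were higher and 860 lower, and after median centring 1150 were higher and 644 lower. The cause of these changes was not tested. Nlrp3, Gsdmd and Gsdma kept their direction in every alternative run. With an array left out, the difference ranged from -0.079 to 0.14 for Nlrc4, from -0.069 to 0.13 for Nlrp10, from -0.016 to 0.18 for Aim2 and from -0.30 to 0.012 for Casp12, so the sign of these uncalled differences turned.

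The shared replicate numbers were not taken as pairs. Deviations of same-numbered mice from their group means correlated at -0.06, 0.22 and 0.10 over all genes for replicates 1, 2 and 3. Differently numbered mice of the 2 groups gave -0.27 to 0.18. These correlations alone do not settle whether the mice were paired. A fit with the replicate block called 6 of the 10 genes (adding Casp1, Casp4 and Gsdmc), 22 pathway genes (all higher, so that Gsdme, the only lower call, was lost) and 2084 of all genes.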

Other observations

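Within each group, replicate 2 was often the highest for the pathway genes: CLEC4C-DTR mouse 2 for 31 of 54 and control mouse 2 for 36 of 54, against 6235 and 6716 of all 19938 genes. For the 10 genes the counts were 6 and 5. Nlrc5, an NLR protein that switches on MHC class I genes, was named after its values were seen and is read by 19 probe sets. CLEC4C-DTR skin had the higher mean in 15 of these, with differences from -0.05 to 0.64 and a median of 0.16, while the brightest differed by 0.52 and did not pass (limma, adjusted p = 0.351).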
